A study of Mus musculus with 26 samples.

Results

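Gsx2, Isl1, Six3, Ebf1, Rarb, Sp8, Nkx2-1 and Zic1 are 8 transcription factor genes used as landmarks of the ventral and midline forebrain, out of 30406 genes listed for all 8 libraries of cortical nuclei. They were selected on their values in these data, because most of them stood far higher in the first replicate of saline-injected wild type (wild-type saline 1) than in the other 7 libraries, so the differences from that library are given here as a description. The libraries are single-nucleus RNA sequencing of prospective somatosensory cortex from male C57Bl/6N embryos at E15.5, and they are 8 of the 26 samples of the series. Pregnant females were given, at E12.5, either saline or poly(I:C), an RNA mimic of viral infection that sets off maternal immune activation (MIA), and embryos were wild type or carried a Csf1r-/- genotype (Csf1r-null), which removes microglia by loss of a receptor they need. Each of the 4 groups, wild-type saline, wild-type MIA, Csf1r-null saline and Csf1r-null MIA, had 2 libraries. Libraries were made from frozen blocks, some from pooled embryos. Wild-type and Csf1r-null embryos were littermates from few dams, so libraries share dams although the injection was given per dam, and the p-values below treat libraries as independent and measure only the spread between them.

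The telencephalon has a dorsal part, the pallium, which makes the glutamatergic neurons of the cortex, and a ventral part, the ganglionic eminences, which makes GABAergic neurons. Cortical interneurons are born in the medial and caudal ganglionic eminences (MGE and CGE) and migrate into the cortex, whereas projection neurons of the striatum come from the lateral eminence and stay in the ventral forebrain. Gsx2 acts in ventral progenitors, Isl1 and Ebf1 in striatal neurons of the direct pathway, Six3 in striatal neurons of the indirect pathway, and Rarb in striatal neurons in general. Sp8 is used by CGE interneurons and also by medial pallial progenitors, Nkx2-1 by MGE progenitors, and Zic1 by septal and midline cells, Cajal-Retzius cells and meningeal or perivascular cells. The question asked was which nuclei held these transcripts and what those nuclei did to comparisons of interneurons.

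Promoters of 3 members are shown because they stood at opposite ends of the pattern: Isl1 and Six3 were the highest-ranking genes of all in wild-type saline 1, and Zic1 went the other way. Each window covers 250 bases before and 50 after a transcription start in RefSeq (GRCm38.p6), printed 5′ to 3′ along the gene's strand. Capitals mark the core letters TAATTA (homeodomain type), CAGCTG (an E-box) and GGGCGG (a GC box, in capitals also as its reverse complement), searched on both strands.

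Isl1, chr13:116309639-116309938, minus strand: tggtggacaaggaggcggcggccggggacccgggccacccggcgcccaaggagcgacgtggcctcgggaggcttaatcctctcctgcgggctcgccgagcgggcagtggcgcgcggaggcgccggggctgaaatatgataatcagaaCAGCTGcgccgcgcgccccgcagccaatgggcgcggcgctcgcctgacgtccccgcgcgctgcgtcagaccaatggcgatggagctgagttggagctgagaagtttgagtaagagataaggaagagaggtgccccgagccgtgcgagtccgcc

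Six3, chr17:85620584-85620883, plus strand: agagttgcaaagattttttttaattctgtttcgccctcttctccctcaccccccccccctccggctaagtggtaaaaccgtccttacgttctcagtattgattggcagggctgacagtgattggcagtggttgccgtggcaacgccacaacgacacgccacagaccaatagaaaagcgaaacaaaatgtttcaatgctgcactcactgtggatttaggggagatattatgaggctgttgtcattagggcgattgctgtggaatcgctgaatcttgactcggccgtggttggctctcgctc

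Zic1, chr9:91365719-91366018, minus strand: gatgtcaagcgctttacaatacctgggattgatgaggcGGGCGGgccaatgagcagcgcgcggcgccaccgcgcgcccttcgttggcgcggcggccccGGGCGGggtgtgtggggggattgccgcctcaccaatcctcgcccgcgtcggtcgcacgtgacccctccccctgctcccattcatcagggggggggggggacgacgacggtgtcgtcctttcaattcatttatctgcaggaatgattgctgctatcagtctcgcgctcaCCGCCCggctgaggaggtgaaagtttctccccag

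All 8 members matched the promoter table by symbol, in 11 windows. TAATTA lay in 1 member window (of Sp8), against 5.291% of 32851 promoter windows of the genome, CAGCTG in 1 (of Isl1), against 16.3%, and GGGCGG in 4, against 35.66%. The members thus had no motif of these 3 in common, and the Six3 window held none of them. In the GENCODE M21 annotation (GRCm38), Isl1 (ENSMUSG00000042258) spans chr13:116298281-116309689, Six3 (ENSMUSG00000038805) chr17:85613608-85629302, Zic1 (ENSMUSG00000032368) chr9:91358058-91365810 and Gsx2 (ENSMUSG00000035946) chr5:75075601-75077893. Ebf1 (ENSMUSG00000057098) spans chr11:44617317-45008091, Rarb (ENSMUSG00000017491) chr14:16430839-16819156, Sp8 (ENSMUSG00000048562) chr12:118846329-118852576 and Nkx2-1 (ENSMUSG00000001496) chr12:56531958-56536908. Ebf1 and Rarb are long genes, and nuclear RNA is rich in unspliced transcripts of long genes, so levels are compared below between libraries and nuclei and not between members.

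After removal of 1917 likely doublets, 41539 nuclei remained, 4386 to 5891 a library, with 4515 in wild-type saline 1. Before that removal the libraries held 9897721 to 17605575 unique molecular identifiers (UMIs), with medians of 1469 to 2953.5 UMIs a nucleus, and wild-type saline 1 lay within both ranges (12949108 and 2443). Microglial genes went against the genotype in a pair of libraries. The library labelled wild-type MIA 2 had 0 Csf1r UMIs and 0 microglia-like nuclei, and the library labelled Csf1r-null saline 2 had 10 Csf1r UMIs and 7 microglia-like nuclei, whereas the other wild-type libraries had 11 to 23 UMIs and 6 to 9 nuclei and the other Csf1r-null libraries 1 to 4 UMIs and 0 nuclei. Share differences of the interneuron class, with and without its striatal-like nuclei, are therefore also given without that pair. The other comparisons include it unless stated. Pairs of libraries shared at most 14 barcodes of nuclei.

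Among genes tied to striatal neurons, Isl1 was almost restricted to wild-type saline 1. Its level was 69.24 CPM there (the gene's UMIs scaled to the library's total), 0.1786 in wild-type saline 2, 0.1828 and 0 in the wild-type MIA libraries, 0.07405 and 0.548 in the Csf1r-null saline libraries and 0 and 0.3918 in the Csf1r-null MIA libraries. These are 834 UMIs in wild-type saline 1 against 15 in the other 7 together, and the 2 libraries at 0 allow up to 3 UMIs each. Six3 showed the same separation, at 69.82 CPM in wild-type saline 1, 0.08928 in wild-type saline 2, 0 in both wild-type MIA libraries, 0.1481 and 1.315 in Csf1r-null saline and 0 and 0.1959 in Csf1r-null MIA. Ebf1 stood at 701.1 CPM in wild-type saline 1, 8.928 in wild-type saline 2, 6.397 and 16.33 in wild-type MIA, 7.998 and 32.22 in Csf1r-null saline and 5.847 and 10.29 in Csf1r-null MIA. For Ebf1 the next highest library was the one labelled Csf1r-null saline 2, whereas for Six3 (12 UMIs there) and Isl1 (5 UMIs there) its Poisson interval overlapped that of Csf1r-null MIA 2. No other library came near wild-type saline 1. Rarb, a retinoic acid receptor, was at 4.483 CPM (54 UMIs) in wild-type saline 1 against 0.09796 to 1.185 CPM in the others.

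Gsx2, the ventral progenitor gene, was at 11.29 CPM in wild-type saline 1, at 1.315 in Csf1r-null saline 2 and at 0 to 0.1219 in the remaining 6 libraries. Sp8 was 22.25 CPM in wild-type saline 1 and 4.509 to 10.79 in the others, the highest of these in wild-type MIA 2. Nkx2-1 was barely detected anywhere, with 15 UMIs (1.245 CPM) in wild-type saline 1 and 0 to 4 UMIs a library elsewhere. Zic1 did not share the pattern: wild-type saline 1 was the lowest of the 8 libraries, at 2.408 CPM against 2.939 to 13.03. Detection showed the same order when each nucleus was thinned to 1000 UMIs: Isl1 was found in 4.478% of nuclei in wild-type saline 1 (6.135% unthinned) and in at most 0.04713% elsewhere, and Zic1 in 0.2332% against 0.283% to 1.347%. Unthinned, Zic1 was found in 0.5094% of nuclei in wild-type saline 1, above Csf1r-null MIA 2 (0.3735%) and below the others (0.6645% to 2.242%). The plot of member levels by library shows these differences on 1 scale.

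**Figure D1:**
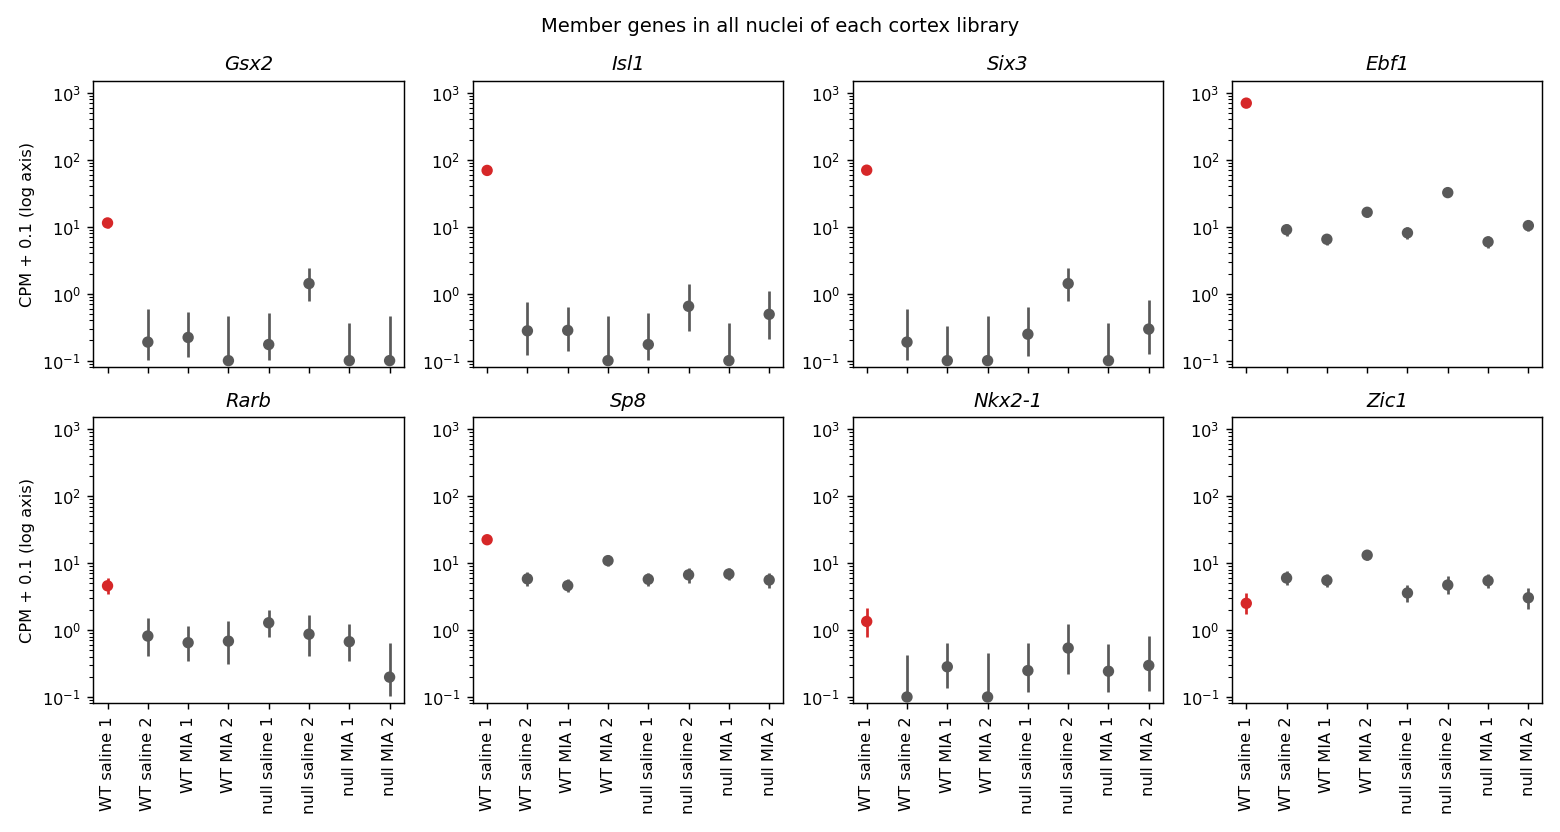
Each panel shows 1 member gene, with its level in CPM plus 0.1 on a log axis for each of the 8 libraries (WT, wild type; null, Csf1r-null), all nuclei summed, and lines for exact Poisson intervals of the count. Wild-type saline 1 (red) is highest for 7 members, by the widest margin for Isl1 (69.24 against at most 0.548 CPM), and lowest for Zic1.

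Across 13534 genes with at least 100 UMIs over the 8 libraries, 72 (0.532%) had a CPM plus 1 in wild-type saline 1 at least 2 times that of the highest other library, and in 20.0% wild-type saline 1 was the highest library. Isl1, Six3 and Ebf1 ranked 1, 2 and 3 by this ratio (45.37, 30.59 and 21.13), Gsx2 11 (5.309) and Rarb 44 (2.51). Just outside the 2-fold line stood Sp8 (1.972) and Nkx2-1 (1.561, too few UMIs to be ranked), and Zic1 was far from it (0.2429). The members were chosen by these values, so nothing is read from their share. The 10 non-member genes most like them by the same ratio, over 8 libraries, included Zfp503, Sp9, Gm39244, Dlx1, Dlx6, Zfhx3, Dlx5, Meis1 and Dlx2, led by Zfp503 at 26.57 CPM against at most 0.6576.

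Other gene lists were set against the same line. Of 11 genes of the GABA lineage (Gad1, Gad2, the Dlx genes and others), 10 were at least 2-fold above the highest other library, with a median ratio to the median of the others of 5.824 against 1.049 over all genes. Of the ventral progenitor list 5 of 6 measured genes did so (median ratio 4.538), and of the CGE-type markers 3 of 7 (2.034), Sp9 among them. Of the striatal projection neuron list 3 of 11 did so (1.313), whereas another 3, Drd1 (10.71 CPM), Pde10a (123.6) and Ppp1r1b (22.17), were lowest of all in wild-type saline 1. Microglia markers had a median ratio as high as 5.535 with 1 of 4 past the line, beside 4 libraries with 0 UMIs of the microglial gene C1qa, and a summed level of 36.11 CPM against 4.278 to 23.84. None of the 8 dorsal pallium genes did (0.8293), and 5 of those 8 were lowest in wild-type saline 1, against 1081 of 13534 over all genes. The summed level of the 8 was 1863 CPM there against 2342 to 2780 elsewhere. Genes of septum and preoptic area (0 of 4, median ratio 0.7072) and of other neighbouring tissue (0 of 4, 0.966) held no gene past that line.

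Nuclei were then clustered without the members and named by markers that include no member. The interneuron class came from 2 clusters, 1 led by Maf, Nxph1 and Lhx6 with 397 of its 2249 nuclei in wild-type saline 1, and 1 with 722 of its 850 nuclei there. It split into MGE-like, CGE-like and striatal-like nuclei and an unnamed sub-cluster led by Ccnd2, Slc18a2, Gadd45g and Mki67, which is a mixture of cell cycle and early GABAergic genes. The striatal-like nuclei had Meis2, Foxp1, Foxp2 and Zfp503 high but the dopamine receptor gene Drd1 near 0. A separate cluster with Dlx1 and Dlx2 was ventral progenitor-like. In wild-type saline 1 there were 443 striatal-like nuclei, 215 of the unnamed sub-cluster, 59 CGE-like, 402 MGE-like and 204 ventral progenitor-like nuclei. In the other 7 libraries together there were 21 striatal-like nuclei, 5 unnamed and 8 ventral progenitor-like. Of these, 20, 5 and 8 were in Csf1r-null saline 2, the library that also came next for Ebf1 and Gsx2. The line between striatal-like and unnamed nuclei moved with the setting. With no doublet removal the class had no unnamed sub-cluster, and 659 nuclei of wild-type saline 1 were striatal-like. The striatal-like sub-cluster had 1 marker of its own list and 1 of another list among its top 10 genes. Results without striatal-like nuclei depend on that line.

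The member transcripts of wild-type saline 1 sat mainly in the striatal-like nuclei. The interneuron class held 9625 of the 10622 member UMIs (90.61%, exact binomial interval 90.04 to 91.16), the striatal-like nuclei alone 84.27%, and ventral progenitor-like nuclei 2.758%. Ebf1 makes up most of these UMIs, and without it the values were 78.87%, 57.92% and 10.7%. With the class chosen by markers in each nucleus, and no clustering, the striatal-type share was 48.66%. In the other 7 libraries the interneuron class held 10.59% of the 2097 member UMIs and nuclei outside it and outside the ventral progenitors 89.13%. Intervals cover counting error only.

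**Figure D2:**
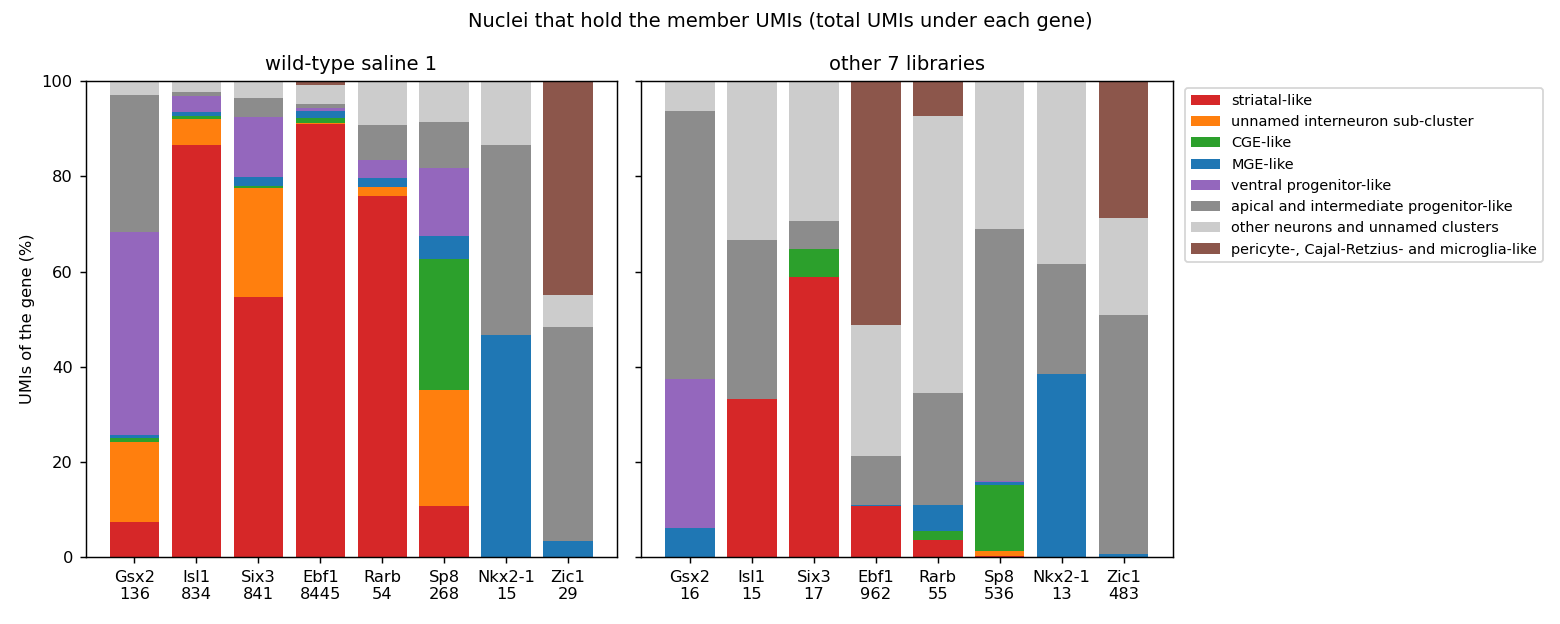
Each bar divides the UMIs of 1 member among classes of nuclei (percent), in wild-type saline 1 (left) and in the other 7 libraries pooled (right), with the number of UMIs under each gene. In wild-type saline 1 striatal-like nuclei hold most Isl1, Ebf1, Rarb and Six3, and ventral progenitor-like nuclei lead for Gsx2, whereas of its 29 Zic1 UMIs apical progenitors hold 34.48%, Cajal-Retzius-like nuclei 27.59% and pericyte-like nuclei 17.24%.

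Each member had its own distribution. In wild-type saline 1, Isl1 reached 735.4 CPM in striatal-like nuclei and was detected in 46.73% of them (median 2073 UMIs), against 0.6522% of glutamatergic and unnamed nuclei (median 2732 UMIs), which should lack it. Ebf1 reached 7833 CPM in striatal-like nuclei, and 142 nuclei with at least 10 UMIs held 99.22% of its UMIs there. Six3 was 499.1 CPM in the unnamed sub-cluster and 467.5 CPM in striatal-like nuclei, and stood at 206.7 CPM in ventral progenitor-like nuclei. For Isl1 5 striatal-like nuclei held 10 or more UMIs (9.557% of its UMIs there), and for Six3 6 did (15.25%).

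Gsx2 was highest in ventral progenitor-like nuclei (113.1 CPM), and lower in the unnamed sub-cluster (59.17). Apical progenitors came from cluster 7, led by Hes5, Notch2 and Hes1, and cluster 9, led by dividing cell genes such as Top2a with no apical marker among its top 10 genes, so each is given alone. In cluster 7 Gsx2 was 34.57 CPM in wild-type saline 1 (27 UMIs, Poisson interval 22.78 to 50.3), 12.3 in Csf1r-null saline 2 (4.515 to 26.78) and 0 to 1.953 in the other 6 libraries. In cluster 9 it had 9 UMIs in wild-type saline 1 (20.67 CPM) and 0 in each of the others. Barcodes of wild-type saline 1 with at most 100 UMIs held Gsx2 at 6.211 CPM. Six3 was 19.21 CPM in cluster 7 and 29.86 in cluster 9 of that library. Its intervals (10.75 to 31.68 and 15.9 to 51.06) include its level in those low barcodes (24.37). Isl1, at the same level in those low barcodes (24.37), was 1.28 CPM in cluster 7 (1 UMI) and 9.187 in cluster 9 (4 UMIs). The part of free RNA in these values was not tested.

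Sp8, Zic1 and part of Ebf1 had sources shared by all libraries. In the other 7 libraries nuclei named apical progenitors held 43.84% of the 536 Sp8 UMIs, migrating neurons 20.34% and CGE-like nuclei 13.81%, against 7.836%, 5.97% and 27.61% of 268 in wild-type saline 1. In cluster 7 Sp8 was 16.65 CPM in wild-type saline 1 (8.863 to 28.46) and 14.35 to 57.91 in the others. Their intervals overlapped it except that of wild-type MIA 2 (57.91 CPM, 42.24 to 77.49). In cluster 9 Sp8 was lowest in wild-type saline 1, at 18.37 CPM (7.933 to 36.2) against 23.77 to 54.45, with overlapping intervals. Sp8 in CGE-like nuclei was 499.7 CPM in wild-type saline 1 and 344.9 to 594.8 CPM in the others, which overlap it. In wild-type saline 1 the unnamed sub-cluster also held Sp8 (167.2 CPM), as did ventral progenitor-like nuclei (74.09 CPM). Ebf1 in pericyte-like nuclei was 5158 CPM in wild-type saline 1 and 2787 to 4953 in the others, from 4 to 11 nuclei a library. Zic1 was 207.7 CPM in Cajal-Retzius-like nuclei of wild-type saline 1 and 82.65 to 252.6 in the others, and 8.963 CPM in cluster 7 against 5.712 to 30.89. In MGE-like nuclei of wild-type saline 1 Ebf1 had 125 UMIs in 13 nuclei, 66 of them in 1 nucleus, against 2 UMIs in the other 7 libraries. In migrating neurons it was 136.8 CPM there, with 85 of 241 UMIs in 1 nucleus, against 4.375 to 85.3, the highest of these in Csf1r-null saline 2. Of the 15 Nkx2-1 UMIs of wild-type saline 1, 7 were in MGE-like nuclei.

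Within the striatal-like nuclei of wild-type saline 1 the members fell into separate sets. Isl1 or Ebf1 was detected without Six3 in 216 nuclei (48.76%), Six3 without Isl1 and Ebf1 in 124 (27.99%), both kinds in 24 (5.418%) and none of the 3 in 79 (17.83%). Isl1 and Ebf1 were detected together in 132 of these nuclei, whereas Six3 met Isl1 in 17 and Ebf1 in 12. All of these nuclei come from 1 library and cannot be compared over replicates, and a gene at a few UMIs a nucleus is missed in many nuclei that use it, so no test was made.

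The sets also differed in genes that did not enter the split. Nuclei with Six3 had Adora2a at 158.6 CPM (Poisson interval 113.8 to 215.1) against 3.868 (0.4684 to 13.97) in those with Isl1 or Ebf1, Drd2 at 92.83 against 1.934 and Penk at 77.36 against 5.801, which are receptor and peptide genes of indirect pathway neurons. Sp9, a regulator of the same neurons, was 812.3 CPM against 44.48. Nuclei with Isl1 or Ebf1 instead had Foxp2 at 1075 CPM (987.7 to 1168) against 251.4 (194 to 320.4) and Ikzf1 at 38.68 against 0 (0 of a summed count, interval to 14.27). Tac1, the substance P precursor of direct pathway neurons, had 7 UMIs (13.54 CPM, 5.442 to 27.89) against 0 (interval to 14.27). Its intervals overlapped, so Tac1 did not separate the sets. Foxp1 (1075 and 1006 CPM), used by both kinds of striatal neuron, overlapped in its intervals and was 48.01 CPM in MGE-like nuclei of that library. Pde10a (154.7 and 158.6) overlapped too, but MGE-like nuclei had it at 135.1 CPM (112.1 to 161.4), so it did not mark striatal-like nuclei. Meis2 (5683 with Isl1 or Ebf1 and 6672 with Six3) and Zfp503 (344.2 and 177.9) had separate intervals, in opposite directions. The dopamine receptor gene Drd1 was no higher with Isl1 or Ebf1, at 3.868 CPM in each set from 2 and 1 UMIs.

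**Figure D3:**
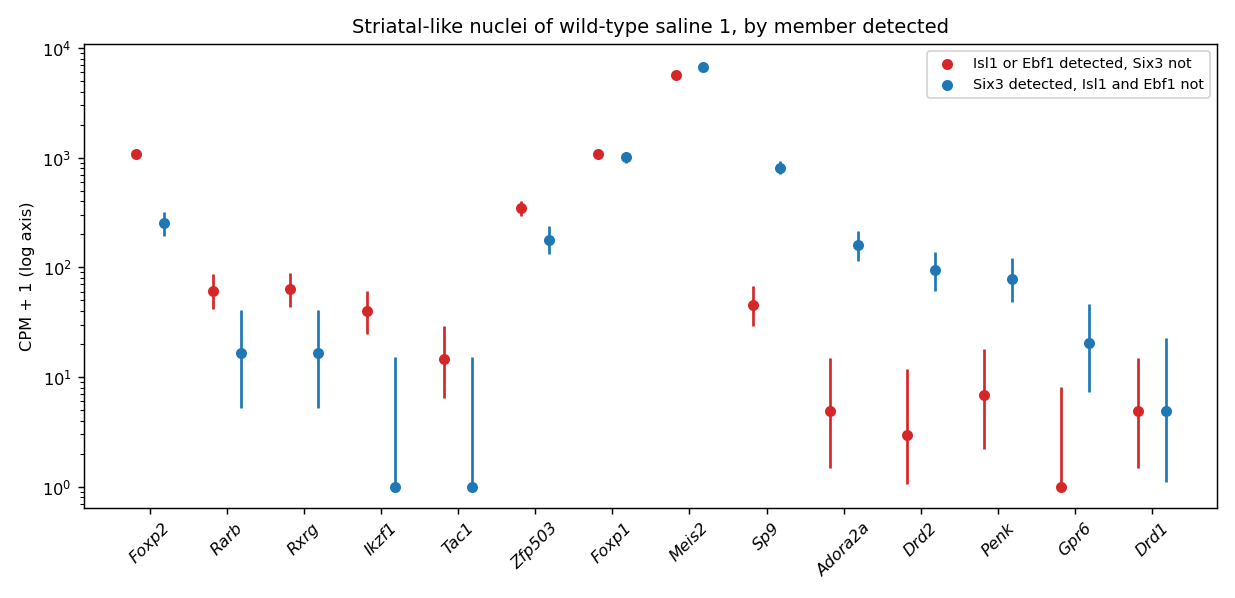
Levels (CPM plus 1, log axis) of 14 genes in striatal-like nuclei of wild-type saline 1 with Isl1 or Ebf1 but no Six3 (red, 216 nuclei) and with Six3 but no Isl1 or Ebf1 (blue, 124 nuclei), with exact Poisson intervals that cover counting error only. Adora2a, Drd2, Penk and Sp9 are higher with Six3, and Foxp2 and Ikzf1 with Isl1 or Ebf1.

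Outside nuclei, the same transcripts were looked for in barcodes with at most 100 UMIs, which include free RNA and could be read only for the 4 libraries of replicate 1. Isl1 in these low barcodes was 24.37 CPM in wild-type saline 1 against 2.41 to 3.766 in the others, Six3 24.37 against 4.218 to 5.783, and Ebf1 98.1 against 30.13 to 39.17. Most of these UMIs in the other libraries lay on barcodes that are nuclei in wild-type saline 1: 85.71% to 100% for Isl1, 85.71% to 95% for Six3 and 88.98% to 91.07% for Ebf1. Off those barcodes wild-type MIA 1, Csf1r-null saline 1 and Csf1r-null MIA 1 had 0, 2 and 1 UMIs of Isl1, 2, 2 and 1 of Six3 and 13, 10 and 13 of Ebf1. Wild-type saline 1 also held more UMIs in low barcodes, 6292659 against 3326687 to 3726326. Its nuclei outside the interneuron and ventral progenitor clusters had Isl1 at 2.852 CPM, Six3 at 7.019 and Gsx2 at 4.716, below the level in its low barcodes, and the part of free RNA in those values was not tested. The level of Ebf1 in them was 52.31 CPM.

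Interneuron comparisons rest on this class, so its size was counted by library. The interneuron class made up 24.78% of nuclei in wild-type saline 1, 5.314% in wild-type saline 2, 6.342% and 4.208% in wild-type MIA, 4.424% and 6.606% in Csf1r-null saline and 5.518% and 4.940% in Csf1r-null MIA. Its make-up differed as much as its size: striatal-like nuclei were 39.59% and MGE-like nuclei 35.92% of the class in wild-type saline 1, whereas MGE-like nuclei were 89.33% to 97.55% in the others. In 5 libraries no striatal-like nucleus was found, which allows a share of up to 1.031% to 1.402% of the class. The class without its striatal-like nuclei was 14.97% of all nuclei in wild-type saline 1 (676 of 4515). MGE-like nuclei alone were 8.904% of all nuclei there against 3.933% to 6.186% elsewhere. In these shares, and in the differences between them below, the nuclei left out of the class still count in the total. The values are therefore not shares of the nuclei that remain.

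**Figure D4:**
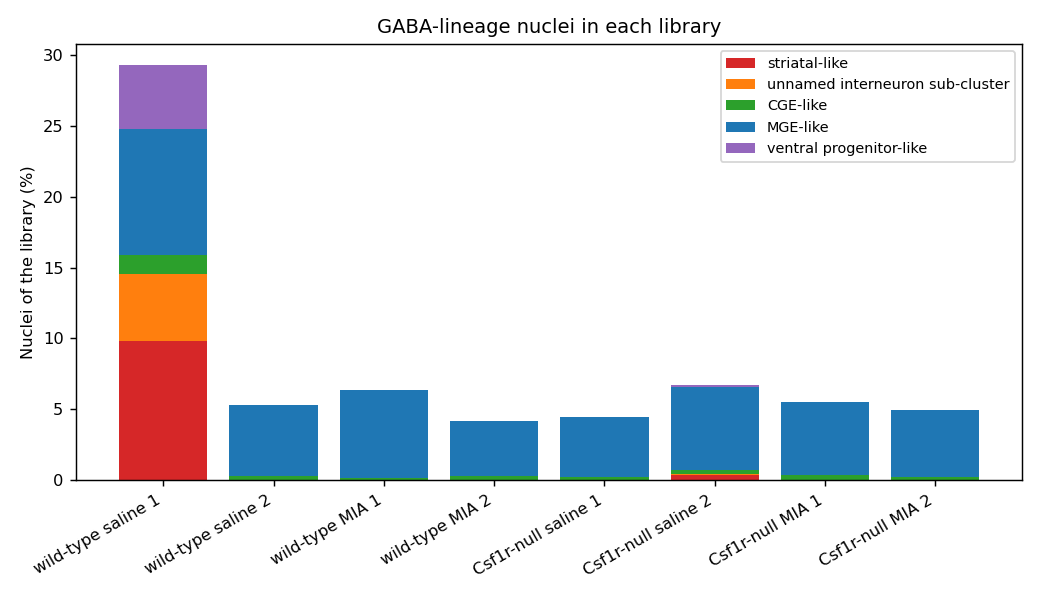
Stacked bars give the percent of each library's nuclei in the 4 sub-clusters of the interneuron class and in the ventral progenitor-like cluster. Wild-type saline 1 alone has many striatal-like, unnamed and ventral progenitor-like nuclei, a small number of them are in Csf1r-null saline 2, and the MGE-like share of wild-type saline 1 (8.904%) is also the highest.

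Share after MIA minus share after saline, averaged over genotypes, was -5.03 percentage points for the class (-9.77 in wild type and -0.286 in Csf1r-null; two-sided exact permutation test within genotype, p = 0.389, smallest possible p 0.0556). Without striatal-like nuclei the difference was -2.49 points (-4.88 and -0.110, p = 0.444, exact permutation test), or -1.49 points (-2.71 in wild type) with no doublet removal and -1.51 points without the pair of libraries whose microglial genes went against their labels, and with MGE-like nuclei alone -1.03 points (p = 0.444, exact permutation test). Without both the striatal-like nuclei and the unnamed sub-cluster it was -1.28 points (-2.50 in wild type, p = 0.444, exact permutation test). The difference was thus smaller with each exclusion and kept its sign. Leaving out wild-type saline 1 moved the class difference to -0.162 points (-0.0386 in wild type). The part of these nuclei in the difference was not tested. By replicate number, wild-type MIA was below wild-type saline in 2 of 2 pairs and Csf1r-null MIA below saline in 1 of 2. Without the pair of libraries whose microglial genes went against their labels the class difference was -3.95 points (p = 1, smallest possible 0.222, exact permutation test).

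Gene expression within the class was compared on UMIs summed per library, with edgeR's quasi-likelihood test. In the class 0 of 8311 genes (0.00%) passed an adjusted p of 0.05 in wild-type MIA against saline, in Csf1r-null MIA against saline, in Csf1r-null against wild type after saline or in the difference of the MIA responses, and 0 of 8208 (0.00%) did without striatal-like nuclei. These counts turned on the fit. With no filter beyond 1 UMI edgeR called 157 genes in the class in wild-type MIA against saline and 118 between the saline genotypes. Without striatal-like nuclei it called 51 genes in wild-type MIA against saline and 70 between the saline genotypes with the replicate number as a block, and 74 and 83 with no filter beyond 1 UMI. At an unadjusted p under 0.05, wild-type MIA against saline gave 818 genes in the class and 732 without striatal-like nuclei, Csf1r-null MIA against saline 129 and 121, the saline genotypes 755 and 709 and the difference of responses 373 and 370. DESeq2 called 5, 1, 1 and 0 genes in these 4 comparisons in the class and 13, 0, 13 and 0 without striatal-like nuclei. On 8176 genes tested both ways, 623 genes were under 0.05 in wild-type MIA against saline in both fits, 77.2% of those of the class and 85.1% of those without striatal-like nuclei. Without the pair of libraries whose microglial genes went against their labels, wild-type MIA and Csf1r-null saline are left with a lone library each. Such a fit takes its spread from the other groups, so its counts of genes are not given.

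The 1 gene that DESeq2 called in Csf1r-null MIA against saline was Ebf1 itself (0.0120% of genes were called lower). This is no test of the gene, which passed the count filter there only with the help of wild-type saline 1. Ebf1 had 105 UMIs in the interneuron class of Csf1r-null saline 2, 104 of them in 4 striatal-like nuclei, and 0 in the class of Csf1r-null saline 1 and of both Csf1r-null MIA libraries. In edgeR it was not called with the filter but was called with no filter beyond 1 UMI, and without Csf1r-null saline 2, whose microglial genes went against its label, no Ebf1 UMI was left in the Csf1r-null class. The 5 genes that DESeq2 called in wild-type MIA against saline, named after their values were seen, included Gm42418, Nrg3, Psmb6 and Tuba1a, and none of the 5 was a member.

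The number of genes called in the wild-type comparison differed with which saline library was kept. Either choice leaves a lone saline library in wild type, and these libraries differ in depth. The class held 2414101 UMIs in wild-type saline 1 and 470856 in wild-type saline 2. The part of depth in the counts of genes below was not tested. Without wild-type saline 2, which leaves wild-type saline 1 as the lone library of its group and assumes that it varies like the others, edgeR called 214 genes in the class (109 higher and 105 lower after MIA, the latter 1.16% of genes) and 74 without striatal-like nuclei (46 lower, 0.510%). Isl1, Six3, Ebf1 and Sp8 were among those called lower in both, which is a description only, since wild-type saline 1 served to choose them. Without wild-type saline 1 edgeR called 0 genes, with 485 at an unadjusted p under 0.05. Without striatal-like nuclei, Meis2, a gene of the striatal projection neuron list, was still called lower after MIA by DESeq2 with all libraries (log2 fold change -4.22, adjusted p = 0.0482). The saline arm of that comparison holds wild-type saline 1, and with it 215 nuclei of the unnamed sub-cluster.

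**Figure D5:**
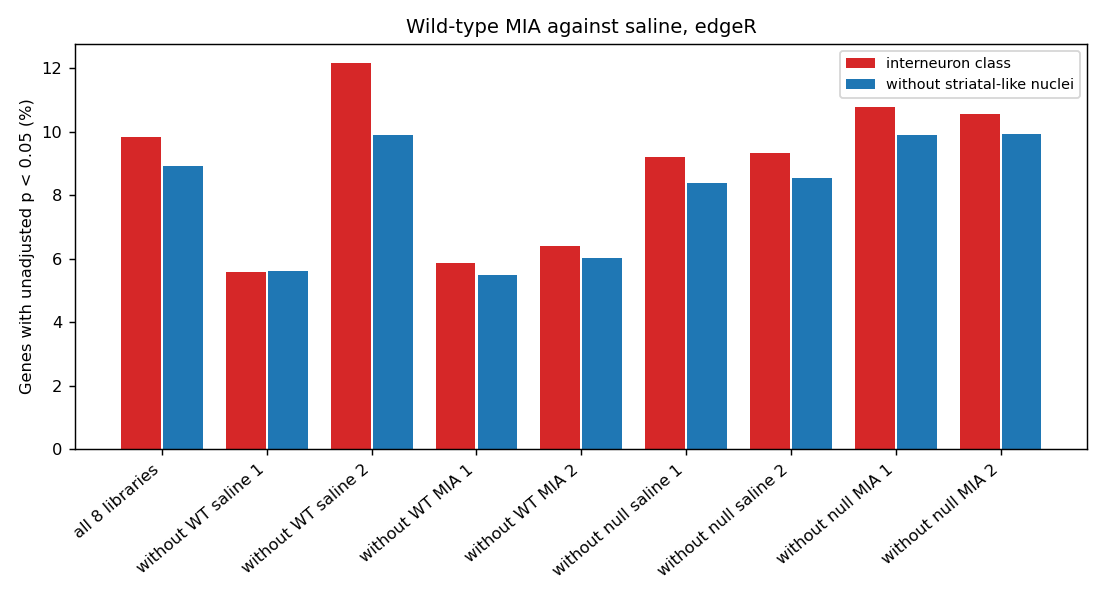
Bars give the percent of genes with an unadjusted p under 0.05 in wild-type MIA against saline (edgeR) with all 8 libraries and with each library left out, for the interneuron class (red) and without striatal-like nuclei (blue). The count in the class is 818 with all libraries, 485 without wild-type saline 1 and 1097 without wild-type saline 2.

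A fit with the replicate number as a block was also made, since same-numbered libraries deviated together. With this pairing edgeR called 1, 0, 1 and 0 genes in the 4 comparisons in the class and 51, 0, 70 and 0 without striatal-like nuclei, where 40 of the 51 were lower after MIA in wild type (0.487% of genes), Sp8 among them. That too is a description, since this fit has wild-type saline 1 in the saline arm, with its nuclei of the unnamed sub-cluster. Sp8 there was 106.1 and 33.98 CPM in wild-type saline and 6.028 and 30.31 in wild-type MIA. The difference thus rested on the pair with wild-type saline 1. In the pair of replicate 2 the values lay close, from totals of 470856 and 395943 UMIs, so no direction is read from that pair. The spread between the wild-type saline libraries fell with each exclusion: 4.65% of genes with at least 100 UMIs were 2-fold or more apart in the class, 3.811% without striatal-like nuclei and 2.197% in MGE-like nuclei, against 2.729% to 4.682% in the other groups for any of these definitions.

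The choice of members set wild-type saline 1 against the other 7 libraries, the Csf1r-null ones among them. It did not compare MIA with saline within Csf1r-null. Csf1r-null MIA against saline was tested over all nuclei, in a fit whose spread is estimated from all 8 libraries, wild-type saline 1 included. Ebf1, Sp8 and Zic1 passed the count filter without the help of wild-type saline 1, and none of these 3 passed the threshold. Over all genes edgeR called 0 of 14379 genes (0.00%), with 41 at an unadjusted p under 0.05 and 1 called by DESeq2 (Hba-a1). Ebf1 was 7.998 and 32.22 CPM after saline and 5.847 and 10.29 after MIA, a log2 fold change of -1.32 ± 1.501 (SE, edgeR, n = 2 libraries a group, adjusted p = 1.00). Its groups overlapped. Without Csf1r-null saline 2 the change was 0.07, and without wild-type saline 1 it was -1.32 ± 0.73 (SE). Sp8 (5.628 and 6.576 CPM after saline, 6.774 and 5.486 after MIA) had a log2 fold change of 0.01 ± 0.59, and Zic1 (3.481 and 4.603, then 5.348 and 2.939) one of 0.03 ± 0.59. Rarb (16 and 7 UMIs after saline, 8 and 1 after MIA), Gsx2 and Six3 (12 UMIs each in Csf1r-null saline 2) reached the filter only through wild-type saline 1, so no fold is given for them.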

How the data were processed

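The study deposited UMI counts per gene and barcode, made by the authors from Chromium 3′ v3.1 libraries of sorted nuclei with Cell Ranger on mm10 (3.1.0 in the submitters' processing notes and in the file headers of replicate 1, 6.0.1 in those of replicate 2, so replicate number and version cannot be told apart). Replicate 1 files hold all barcodes and replicate 2 files called barcodes only. Sorted microglia libraries were not used here. Nuclei had at least 500 UMIs and 200 genes. Doublets were removed by score at 0.8% per 1000 nuclei, because the caller's automatic threshold marked 0% to 3.05%. After normalization, 2000 variable genes, 30 components and Leiden clustering (scanpy 1.11.5) were used without 650 genes (the members, Csf1r and genes that the study lists as changed in nuclei). Clusters took a name from at least 3 marker genes, by a rule settled after the clusters were seen, and an interneuron sub-cluster stayed unnamed where another list had more markers among its top 10 genes.

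For each class, the UMIs of a library were added up and fitted in edgeR 4.0.16 (quasi-likelihood, TMM, filterByExpr, Benjamini-Hochberg over all genes), with DESeq2 1.42.0 as an alternative. Members are named with all values, other genes from the lists, the 10 most alike by ratio and at most 10 called genes a fit, and some genes are not reported here. Members and lists were chosen with earlier results of these data known. On simulated counts with 200 genes changed 4-fold, edgeR found 84.1% (8190 genes, interneuron class), 86.4% (8293, without striatal-like nuclei) and 90.9% (14216, all nuclei) in Csf1r-null MIA against saline. It also made 9, 4 and 6 false calls. The simulation gave all genes 1 common dispersion, made libraries independent and had no library unlike the others. The data differ in each of these, so those percentages do not measure the power of the real fits. The correlation of deviations between same-numbered libraries was 0.188 to 0.394 in the class, 0.228 to 0.397 without striatal-like nuclei and 0.494 to 0.680 over all nuclei, so replicate numbers were taken to pair the libraries. Results were also computed with 1000 UMIs a nucleus, without doublet removal, with all genes in the clustering and with a class chosen by marker counts in each nucleus.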

Additional observations from a re-analysis of the deposited data

Results flagged for a closer look

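Member transcripts appeared in barcodes of other libraries that the comparisons do not use. Of the member UMIs in low barcodes (at most 100 UMIs), 77.01% in wild-type MIA 1, 78.03% in Csf1r-null saline 1 and 76.8% in Csf1r-null MIA 1 lay on barcodes that are nuclei in wild-type saline 1. Those barcodes were 0.5553%, 0.6148% and 0.619% of the low barcodes and held 5.617%, 5.035% and 5.384% of the UMIs in them. The UMIs on them came to 1.443%, 1.449% and 1.441% of the UMIs of the same barcodes in wild-type saline 1, and the member UMIs to 1.251%, 1.173% and 1.208%. The cause was not tested. The comparisons of low barcodes in the report therefore include, in these 3 libraries, member UMIs on barcodes of wild-type saline 1.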

How the results depend on the processing

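Of 191 alternatives for the 12 main results, 162 were labelled the same and 29 moved. For gene counts, which were 0 in every main fit, the same meant 0 calls again. For share differences it meant the same sign with p not under 0.05 in the exact permutation test. The smallest possible p there was 0.0556 or more, so the size of a share difference was not judged. For the share of member UMIs it meant staying inside the main interval, and every alternative moved. With no filter beyond 1 UMI, edgeR called 157 genes in the class for wild-type MIA against saline, 3 for Csf1r-null MIA against saline (Ebf1, Meis2 and Foxp2), 118 for the saline genotypes and 7 for the difference of responses. Without striatal-like nuclei that setting called 74, 83 for the saline genotypes and 7 for the difference, and over all nuclei 5 in Csf1r-null MIA against saline (Hba-x, Hba-a1, Hba-a2, Hbb-y and C1qb). DESeq2 called 5, 1 and 1 in the class, 13 and 13 without striatal-like nuclei and, for Csf1r-null MIA against saline, 1 over all nuclei. The replicate block called 1 gene in wild-type MIA against saline and 1 (Gm47423) in the saline genotypes in the class and 51 and 70 without striatal-like nuclei, and changed no other call of the comparisons reported.

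Leaving out 1 library at a time gave 0 to 214 calls in the class for wild-type MIA against saline, 0 to 171 for the saline genotypes and 0 to 20 for the difference of responses. Without striatal-like nuclei the ranges were 0 to 74, 0 to 76 and 0 to 5. In each the highest count came without wild-type saline 2, and every other left-out library gave 0. Share differences ranged from -9.90 to -0.162 points for the class and from -4.91 to -0.0786 without striatal-like nuclei. Leaving out the pair of libraries whose microglial genes went against their labels was a choice made after seeing the data, and counts of genes from that fit are not given. The cause of these moves was not tested.

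The share of member UMIs of wild-type saline 1 held by the interneuron class was 91.516% with at least 1000 UMIs a nucleus, 85.785% with no doublet removal, 91.734% with all genes in the clustering and 75.824% with the class chosen by markers. Log2 fold changes in Csf1r-null MIA against saline changed sign in 10 of 89 alternatives for single members. Ebf1 ran from -2.0415 to 0.071055 over left-out libraries and was 0.056449 without that pair of libraries. Sp8 was -0.021746 with DESeq2, -0.01809 with relative log expression factors and -0.15183 to 0.17494 over left-out libraries. Zic1 was -0.0010105 with DESeq2 and -0.3705 to 0.33084 over left-out libraries. Rarb and Nkx2-1 rest on few UMIs outside wild-type saline 1, so no order among the other libraries is read for them.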
